A study of Homo sapiens with 14 samples.

Results

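The mRNAs described are those of 6 matrix metalloproteinases (MMP1, MMP2, MMP3, MMP9, MMP13 and MMP14) and 4 of their inhibitors (TIMP1, TIMP2, TIMP3 and RECK), 10 genes chosen by name among the 58434 gene symbols counted. All 10 symbols were found in the count table. MDA-MB-231, an established human breast cancer line, carried a doxycycline-inducible lentiviral shRNA, either a non-silencing sequence (shNSi) or a sequence against DAP5 (shDAP5), a translation initiation factor related to eIF4G and encoded by EIF4G2. Both lines were selected stable populations sorted for a red fluorescent reporter, and both received doxycycline at 1 µg/ml for 6 days, so the control cells carried the drug and the vector as well. From 2 cultures of each line the total mRNA and the mRNA of light and of heavy polysomes were sequenced, and from shNSi cells also a moderate pool, which gives 14 libraries. Light polysomes hold mRNAs with few ribosomes and heavy polysomes mRNAs with many. The question for each mRNA was whether silencing of DAP5 changed its abundance in total mRNA, its place in the polysomes, or both. Each shRNA was a single sequence in a single selected line. Silencing of DAP5, other effects of the hairpin and differences between the selected lines therefore cannot be told apart.

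The libraries held between 25899838 and 30795910 counts. In total mRNA EIF4G2 stood at 1391 and 1358 CPM (counts scaled to a common library size, with TMM factors over the 14 libraries) in the shNSi cultures and at 525 and 730 CPM in the shDAP5 cultures, a log2 change of −1.11 (SE 0.18, adjusted p = 0.0172). It passed there under 9 of 13 other settings, and did not pass in heavy (−0.86) or light polysomes (−1.33). The 5 genes chosen to mark MDA-MB-231 cells (VIM, CD44, AXL, CAV1 and MSN) lay between 105 and 14734 CPM in every library. In total mRNA 0 of the 5 passed, and in heavy polysomes VIM (−1.35), CD44 (−1.94) and MSN (−1.63) fell in shDAP5 cells, as MSN did in heavy translation efficiency (−1.41, adjusted p = 0.0162). Of the 5 chosen as absent or low (ESR1, PGR, EPCAM, CDH1 and ESRP1), 1, PGR, had no read in any library and the highest value was 6.10 CPM. Leukocyte markers reached at most 0.867 CPM and the 1 endothelial marker in the table, CDH5, 0.0474 CPM, whereas the luminal markers KRT19, GATA3 and FOXA1 lay between 0.189 and 28.3 CPM and 0 of the 3 passed in total mRNA or heavy polysomes (KRT19 1.01 in total mRNA, adjusted p = 0.138). The shDAP5 light libraries carried the sample code given to the moderate pool in shNSi cells, and for shDAP5 cells the title of the total library also held the word polysome. They were taken as light polysome and total mRNA libraries. In these bulk samples fewer cells that express a gene and less mRNA per cell cannot be told apart.

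Matrix metalloproteinases are zinc endopeptidases that are made as inactive precursors and cleave collagens, gelatins, proteoglycans and cell surface proteins once the propeptide is removed. MMP1 and MMP13 are interstitial collagenases, MMP3 (stromelysin) cleaves many matrix proteins and activates proMMP1, MMP2 and MMP9 are gelatinases, and MMP14 is a membrane-anchored collagenase that activates proMMP2 at the cell surface. TIMP1, TIMP2 and TIMP3 bind the active site of the enzymes, TIMP2 also docks proMMP2 to MMP14, TIMP3 is held in the matrix, and RECK is a membrane-anchored inhibitor. In breast cancer cells these proteases and inhibitors are known for their part in invasion through collagen and basement membrane.

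Because DAP5 acts at the initiation step of translation, the mRNA sequence around each start codon is shown from the principal transcript of GENCODE v29 (GRCh38), with 12 bases before and 15 after the start codon, which is in capitals.
MMP1: acaaaggccagtATGcacagctttcctcca
MMP2: gggagcgctacgATGgaggcgctaatggcc
MMP3: aagccagtggaaATGaagagtcttccaatc
MMP9: tctgccctcaccATGagcctctggcagccc
MMP13: tcaccattcaagATGcatccaggggtcctg
MMP14: tggtctcggaccATGtctcccgccccaaga
TIMP1: agagaacccaccATGgccccctttgagccc
TIMP2: ccccggcccgccATGggcgccgcggcccgc
TIMP3: gcagcagcggcaATGaccccttggctcggg
RECK: cccggcccggacATGgcgaccgtccgggcc

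A purine stood at the third base before the start codon in 10 of the 10 mRNAs, as in 85.9% of 13345 principal transcripts. A G followed the start codon in 4 of the 10 (MMP2, TIMP1, TIMP2 and RECK), against 50.8% of all. The 5′ UTR was 68 bases long in MMP1, 257 in MMP3 and 261 in MMP14, against 509 in MMP2, 170 in TIMP1, 299 in TIMP2, 301 in TIMP3 and 566 in RECK, and 19 and 29 in MMP9 and MMP13, with a median of 195 over all principal transcripts. Its GC content was 48.5% in MMP1, 44.4% in MMP3 and 51.7% in MMP13, between 60.2% and 63.2% in MMP14, TIMP1, RECK and MMP9, and 71.7% in MMP2, 77.7% in TIMP3 and 81.6% in TIMP2, beside a median of 63.5%. The coding sequences of the inhibitors TIMP1, TIMP2 and TIMP3 were short, at 621, 660 and 633 bases, whereas those of the metalloproteinases ran from 1407 bases in MMP1 to 2121 bases in MMP9, and that of RECK was 2913 bases.

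MMP1 (chr11:102789920-102798160, minus strand, GRCh38) and MMP3 (chr11:102835801-102843803, minus strand) are neighbours in the metalloproteinase cluster of chromosome 11, with MMP13 (chr11:102942995-102955734, minus strand) farther along it. MMP14 lies at chr14:22836557-22849027 (plus strand), MMP2 at chr16:55389700-55506691 (plus strand) and MMP9 at chr20:46008908-46016561 (plus strand). TIMP1 lies at chrX:47582313-47586789, TIMP3 at chr22:32801701-32863043 and RECK at chr9:36036433-36124451, all on the plus strand, and TIMP2 at chr17:78852977-78925387 on the minus strand. The exons of MMP1 and MMP3 share 150 and 32 bases with WTAPP1 on the other strand, for which no library held more than 10 reads. On the same strand TIMP2 shares 198 bases with CEP295NL (at most 6 reads) and MMP2 174 with AC007336.3. On the other strand MMP9 shares 430 bases with SLC12A5-AS1 and TIMP2 367 with AC022966.1. AC007336.3, SLC12A5-AS1 and AC022966.1 had no entry of that name among the symbols counted. The name of the deposited count table holds the letters rev, which may mark counting on the reverse strand, but no text used here states it.

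In control cells the 3 TIMP mRNAs and MMP1 had the highest levels of these mRNAs, and the inhibitor RECK was among the lowest. On the scale of CPM per kb of exon, total mRNA of the shNSi cultures held 95.2 and 211 of TIMP1, 107 and 91.1 of TIMP2, 61.6 and 146 of MMP1, and 53.3 and 101 of TIMP3. MMP14 stood at 29.9 and 58.7 CPM per kb, MMP3 at 1.46 and 4.64, MMP2 at 1.10 and 2.92 and RECK at 1.27 and 0.947. The ranges of TIMP1, TIMP2, MMP1 and TIMP3 overlapped each other, as did those of MMP14 and TIMP3, of MMP3 and MMP2, and of MMP2 and RECK. MMP9 and MMP13 were at the limit of detection. The 2 shNSi cultures were not alike for this family: the second culture was higher than the first by 1.24 in MMP1, 1.33 in MMP2, 1.52 in MMP3, 0.97 in MMP14, 1.15 in TIMP1 and 0.92 in TIMP3 on the log2 scale in total mRNA, each beyond the 95th percentile of all 16235 genes (0.61). TIMP2, at −0.23, and RECK, at −0.39, did not share this gap. In the shDAP5 cultures the same gap lay between −0.56 in MMP2 and 0.45 in TIMP2.

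**Figure D1:**
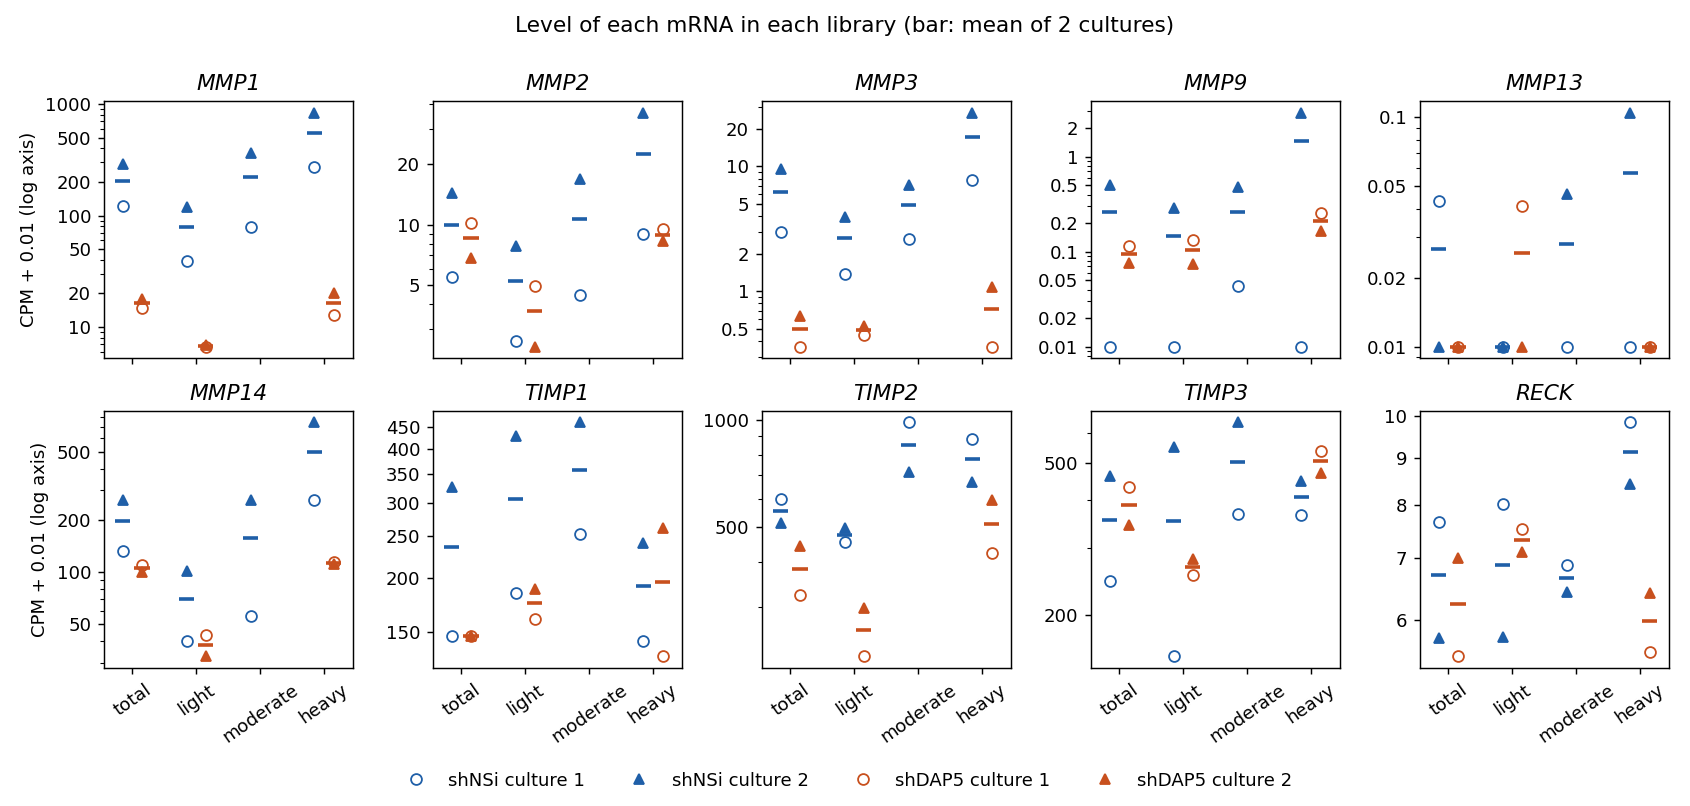
Level of each of the 10 mRNAs in CPM + 0.01 (log axis, own range in each panel) in total mRNA and in light, moderate and heavy polysomes of shNSi (blue) and shDAP5 (orange) cells, with open circles for culture 1, triangles for culture 2 and a bar for the mean of 2 cultures. MMP1, MMP3 and TIMP2 sit lower in both shDAP5 cultures than in both shNSi cultures in each of the 3 fractions that both lines have. MMP14 does so in total mRNA and heavy polysomes, and the share of all genes that do so was not counted. The moderate pool exists for shNSi only.

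In total mRNA the collagenase MMP1 and the stromelysin MMP3 were the members with the largest differences, and MMP3 passed the test. MMP3 stood at 2.99 and 9.50 CPM in the shNSi cultures (90 and 267 reads) and at 0.350 and 0.627 CPM in the shDAP5 cultures (10 and 19 reads). It fell by 3.63 on the log2 scale (SE 0.59), a level 12.3-fold lower (adjusted p = 0.0412, from the quasi-likelihood test of edgeR, adjusted over all genes by the Benjamini-Hochberg method). MMP1 stood at 121 and 288 CPM in shNSi and at 14.9 and 17.9 CPM in shDAP5 cells. Its change was −3.61 (SE 0.44), as large as that of MMP3, and lay just outside the threshold (adjusted p = 0.0584). For both genes every shDAP5 culture lay below every shNSi culture. The share of all genes whose levels separate in this way was not counted, here or in the polysome pools. Ordered from the lowest change, MMP3 was the 9th and MMP1 the 10th of 14992 genes tested.

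The other members changed less in total mRNA. MMP14 stood at 134 and 262 CPM in shNSi and 110 and 101 CPM in shDAP5 cells, groups that did not overlap, with a log2 change of −0.88 (SE 0.28, adjusted p = 0.219). TIMP2 stood at 602 and 513 CPM in shNSi and 323 and 442 CPM in shDAP5 cells, again without overlap, with a log2 change of −0.52 (SE 0.19, adjusted p = 0.254). MMP2 (−0.19), TIMP1 (−0.66), TIMP3 (0.16) and RECK (−0.08) overlapped between the lines. MMP14 passed under 3 and TIMP1 under 2 of 13 other settings. Without shNSi culture 1 both passed as lower (−1.31 and −1.15, adjusted p = 0.00165 and 0.00395), and without shNSi culture 2 they were at −0.33 and 0.013. Thus 1 of the 8 members tested passed in total mRNA, and it was lower, where 0.354% of all genes passed in either direction and 0.267% were lower in shDAP5 cells. MMP9 and MMP13 did not pass the filter on low counts. The median change of the 8 members was −0.59, beside 0.01 for all genes. MMP3 passed under 8 of 13 other settings. Its change was −2.58 without shNSi culture 2 and −4.26 without shNSi culture 1. Its call was lost without shDAP5 culture 1 (−3.29), as was that of EIF4G2 (−0.90). MMP1 passed under 9 of 13 other settings, among them each fit that left out an shNSi culture. It did not pass without shDAP5 culture 1 (−3.50) or without shDAP5 culture 2 (−3.76), though its change stayed near −3.61.

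In heavy polysomes 4 metalloproteinase mRNAs fell and no inhibitor passed the test. MMP1 stood at 272 and 837 CPM in the shNSi cultures and at 12.8 and 20.3 CPM in the shDAP5 cultures, with no overlap and a log2 change of −4.87 (SE 0.43, adjusted p = 1.52e-15), a 29.2-fold lower level. MMP3 stood at 7.79 and 26.9 CPM in shNSi and at 0.350 and 1.08 CPM in shDAP5 cells, a log2 change of −4.41 (SE 0.54, adjusted p = 3.06e-07). MMP14 stood at 263 and 740 CPM in shNSi and at 114 and 111 CPM in shDAP5 cells, a log2 change of −1.96 (SE 0.37, adjusted p = 1.75e-05). These 3 mRNAs did not overlap between the lines, and the share of all genes whose levels do so was not counted. The markers VIM, CD44 and MSN fell in the same libraries, and their part in the result was not tested. MMP1 had the 6th and MMP3 the 8th lowest change of 14270 genes, whereas MMP14 was 264th.

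The gelatinase MMP2 also passed (log2 change −1.15, SE 0.40, adjusted p = 0.0267), but its groups overlapped. It stood at 8.95 and 36.2 CPM in shNSi and at 9.44 and 8.26 CPM in shDAP5 heavy polysomes, so the difference rested on shNSi culture 2, and without that culture the change was 0.13. MMP2 passed under 6 of 15 other settings. The inhibitors changed by 0.23 (TIMP1), −0.43 (TIMP2), 0.50 (TIMP3) and −0.43 (RECK), none with an adjusted p under the threshold (TIMP2 passed as lower with coding length offsets and TIMP3 as higher with limma, each under 1 of 15 other settings), and TIMP1, TIMP3 and RECK took the other sign when offsets for coding length were fitted (−0.55, −0.22 and 0.25). RECK stood at 9.84 and 8.43 CPM in shNSi and 5.53 and 6.40 CPM in shDAP5 heavy polysomes, without overlap. TIMP2 did not overlap either, at 888 and 671 CPM in shNSi and 423 and 598 CPM in shDAP5 cells. The 4 lower members of 8 tested stand beside 30.9% of all genes that passed in either direction and 16.7% that passed as lower. The size of these falls moved with the shNSi culture left out. MMP1, MMP3 and MMP14 changed by −3.89, −3.30 and −1.07 without shNSi culture 2 and by −5.57, −5.15 and −2.62 without shNSi culture 1, each past the threshold. Without shDAP5 culture 2 no member passed (MMP1 −5.28, MMP3 −5.45 and MMP14 −1.97, with adjusted p = 0.0624, 0.0777 and 0.115), and only 2 of 14891 genes did. With the shNSi moderate pool in place of the heavy pool, MMP1 (−3.72) and MMP3 (−2.76) passed and MMP14 (−0.47) and MMP2 (−0.25) did not.

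**Figure D2:**
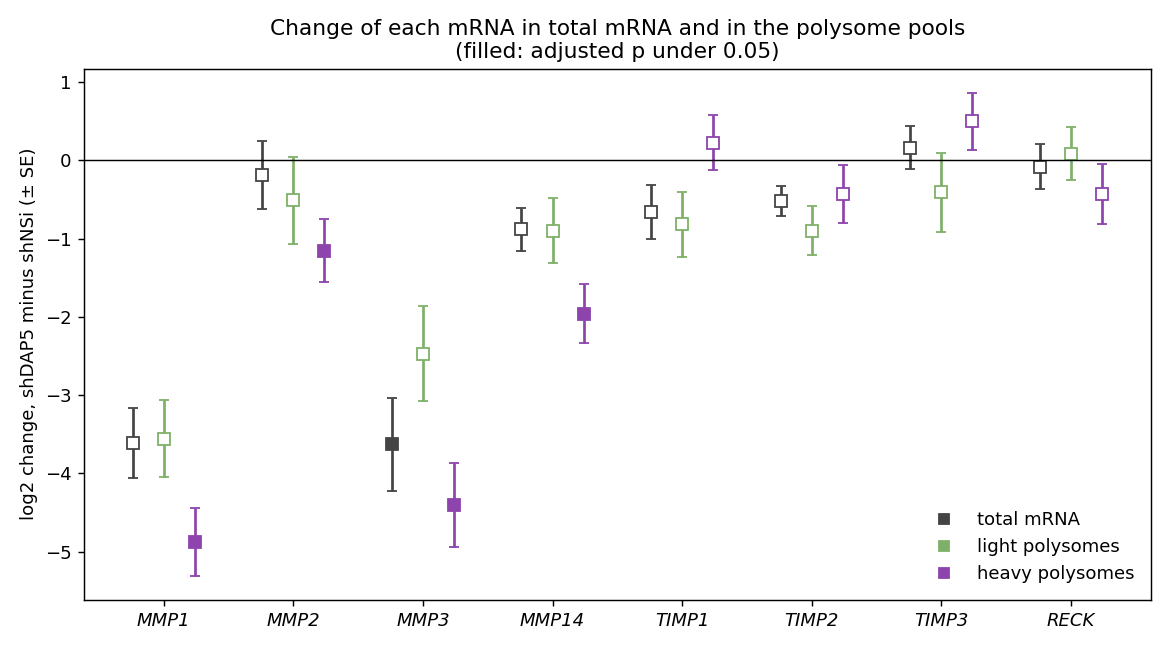
Log2 change (shDAP5 minus shNSi) of the 8 members tested in total mRNA (grey), light polysomes (green) and heavy polysomes (purple), with bars of 1 standard error and filled symbols where the adjusted p is under 0.05. MMP1, MMP2, MMP3 and MMP14 are lowest in heavy polysomes, where all 4 are filled, and MMP3 is the one filled in total mRNA.

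In light polysomes no member passed, as no gene did (0% of 15529), although 1330 genes and 3 members had an unadjusted p under 0.05 (MMP1, MMP3 and TIMP2). DESeq2 passed 2 members and limma 0. MMP1 stood at 39.5 and 118 CPM in shNSi and at 6.62 and 6.88 CPM in shDAP5 light polysomes, without overlap, and its log2 change was −3.55 (SE 0.49, adjusted p = 0.257), close to that in total mRNA. It passed under 10 of 14 other settings, among them all 4 fits that left out a culture. MMP3 stood at 1.35 and 3.94 CPM in shNSi and 0.435 and 0.519 CPM in shDAP5 cells, a change of −2.47 (SE 0.61, adjusted p = 0.430). TIMP2 stood at 455 and 500 CPM in shNSi and 218 and 298 CPM in shDAP5 cells, also without overlap, a change of −0.90 (SE 0.32, adjusted p = 0.535). MMP14 (−0.90), TIMP1 (−0.82), MMP2 (−0.51), TIMP3 (−0.41) and RECK (0.08) made up the rest. Without shNSi culture 2 MMP14 was at −0.069 and TIMP1 at −0.084, and without shNSi culture 1 at −1.44 and −1.32. Without shNSi culture 1 MMP1, MMP3, MMP2, TIMP2 and TIMP3 were at −4.15, −3.06, −1.11, −0.98 and −1.07, and RECK was at 0.33. Without shNSi culture 2 MMP2 (0.49) and TIMP3 (0.78) were above zero. With the shNSi moderate pool as the control for these libraries, whose code the shDAP5 libraries share, MMP1, MMP3, MMP14 and TIMP2 passed as lower (−5.02, −3.33, −2.05 and −1.72). In that fit 3940 of 15431 genes passed, 2001 of them as lower.

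Heavy translation efficiency, the change in heavy polysomes beyond the change in total mRNA of the same culture, was lower for MMP1 and MMP14. For MMP1 the log2 of its heavy polysome level over its level in total mRNA was 1.16 and 1.54 in the shNSi cultures and −0.21 and 0.18 in the shDAP5 cultures. The interaction was −1.22 (SE 0.35, adjusted p = 0.0189), beside a change in total mRNA of −3.61. For MMP14 the ratios were 0.97 and 1.50 in shNSi and 0.06 and 0.14 in shDAP5 cells, with an interaction of −0.99 (SE 0.34, adjusted p = 0.0465).

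MMP2 and MMP3 had ratios that did not overlap between the lines but did not pass. For MMP2 they were 0.67 and 1.30 in shNSi and −0.11 and 0.26 in shDAP5 cells (interaction −0.82, SE 0.36, adjusted p = 0.117). For MMP3 they were 1.25 and 1.45 in shNSi and 0.00 and 0.49 in shDAP5 cells (interaction −0.80, SE 0.50, adjusted p = 0.290), with 10 to 28 reads in each shDAP5 library. MMP9, which entered this test with 0 to 61 reads a library, had an interaction of −1.21 with an SE of 1.18. Over both lines 5 of 9 members (MMP1, MMP2, MMP3, MMP14 and RECK) had both shDAP5 ratios below both shNSi ratios, as did 32.6% of 16235 genes.

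Among the inhibitors TIMP1 was the one with the largest interaction, at 0.72 (SE 0.36, adjusted p = 0.168), and it passed as higher under 2 of 16 other settings. Its heavy to total ratios, −0.04 and −0.43 in shNSi and −0.16 and 0.83 in shDAP5 cells, overlapped. TIMP2 (0.08), TIMP3 (0.27) and RECK (−0.37) lay within 1 standard error of zero (0.36 to 0.37), and all 3 took the other sign with offsets for coding length (−0.56, −0.39 and 0.27). In all, 2 of 9 members passed, both lower, where 13.1% of all genes passed and 8.23% passed as lower. These calls were not stable: MMP1 passed under 5 and MMP14 under 4 of 16 other settings, and leaving out any 1 of the 4 cultures ended both calls (MMP1 between −1.46 and −0.998, MMP14 between −1.29 and −0.73). With the shNSi moderate pool in place of the heavy pool the interactions were 0.11 for MMP1 and 0.71 for MMP14.

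In light translation efficiency 0 of 8 members passed, as did 0% of 15967 genes, while 833 genes and 1 member had an unadjusted p under 0.05. DESeq2 and limma also passed 0 members. That member was MMP3, at 1.19 (SE 0.47, adjusted p = 0.879), with light to total log2 ratios of −0.91 and −1.17 in shNSi and 0.14 and −0.14 in shDAP5 cells. MMP1 (0.17) and MMP14 (0.07) had interactions within 1 SE of zero in light polysomes. With the shNSi moderate pool as the control, MMP1 (−1.11), MMP2 (−1.23), TIMP2 (−1.15) and TIMP3 (−1.04) passed as lower, and the sign of MMP1 was thus turned. In that fit 4367 of 15859 genes passed, 2181 of them as lower.

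Within the polysomes of control cells MMP1, MMP2, MMP3 and MMP14 lay toward the heavy pool. In shNSi cells the log2 ratio of heavy to light level was 2.72 (SE 0.32) for MMP1, 2.71 (SE 0.34) for MMP14, 2.58 (SE 0.27) for MMP3, 1.93 (SE 0.26) for MMP2. MMP9 also passed (3.23, SE 0.73), but with 0 reads in both pools of culture 1 its value came from culture 2 alone, with no replicate. With it 5 of 9 members passed and without it 4, as higher in heavy polysomes, where 65.6% of all genes passed in one direction or the other and 33.8% as higher. TIMP2 (0.60), TIMP3 (0.35), RECK (0.33) and TIMP1 (−0.69, adjusted p = 0.0505) did not pass, but under 5 other settings TIMP1 passed as lower in 4 and TIMP2 as higher in 1. TIMP3 and RECK were at −0.13 and −0.15 with library size alone as the scale, which moved the median of all genes to −0.54 from −0.06.

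In shDAP5 cells MMP14, MMP2 and MMP1 lay toward the heavy pool and MMP3 did not pass. The ratios were 1.55 (SE 0.20) for MMP14, 1.30 (SE 0.26) for MMP2 and 1.23 (SE 0.23) for MMP1, each past the threshold, and 0.45 (SE 0.49, adjusted p = 0.468) for MMP3. TIMP2 (0.95, SE 0.20) and TIMP3 (0.88, SE 0.21) passed as higher in heavy polysomes, and TIMP1 (0.09) and RECK (−0.34) did not pass. Here 5 of 8 members passed, all as higher, beside 50.7% of all genes in either direction and 25.9% as higher.

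The difference between the lines in this ratio was −2.08 (SE 0.58, adjusted p = 0.0384) for MMP3, the 1 member of 8 that passed, where 6.75% of all genes passed in either direction and 5.21% as lower. MMP3 had log2 ratios of 2.16 and 2.63 in the shNSi cultures and −0.14 and 0.63 in the shDAP5 cultures. MMP1 followed closely, with 2.77 and 2.82 in shNSi and 0.90 and 1.49 in shDAP5 cells (difference −1.45, SE 0.45, adjusted p = 0.0529). MMP14 had 2.71 and 2.86 in shNSi and 1.38 and 1.76 in shDAP5 cells (difference −1.12, SE 0.44, adjusted p = 0.117). MMP2 (−0.58) and RECK (−0.62) also had both shDAP5 cultures below both shNSi cultures, so that 5 of 9 members did, beside 31.7% of all genes. The inhibitors TIMP1 (0.79), TIMP2 (0.39) and TIMP3 (0.55) had differences above zero, none past the threshold (TIMP3 passed under 2 of 17 other settings, at 1.28 with the shNSi moderate pool as the light control and at 1.32 without shNSi culture 1), and TIMP2 and TIMP3 were below zero with coding length offsets (−0.32 and −0.17).

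Some measurements move with this result. Over 16235 genes the spread (SD) of the log2 heavy to light ratio was 1.35 and 1.24 in the shNSi cultures and 0.875 and 0.895 in the shDAP5 cultures, and the members with the highest ratios in control cells were among those with the largest differences. The shDAP5 light libraries carried the code of the moderate pool, and with the shNSi moderate pool as the light control the differences were −1.17 for MMP3 and −0.15 for MMP1, with adjusted p = 0.117 and 0.850. The part of either in the result was not tested. The MMP3 call was also lost without shNSi culture 2, shDAP5 culture 1 or shDAP5 culture 2 (−1.93, −1.54 and −2.87).

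Ratios of read counts between members of the same library need no scaling between libraries. The ratio of MMP1 to MMP14 reads lay between 0.909 and 1.42 in all 8 shNSi libraries and between 0.112 and 0.212 in all 6 shDAP5 libraries, whatever the fraction. On the log2 scale the total mRNA ratio was −0.00020 ± 0.19 (SD, n = 2) in shNSi and −2.69 ± 0.27 (SD, n = 2) in shDAP5 cells. Thus the gap between the shNSi cultures was shared by MMP1 and MMP14 and nearly vanished from their ratio. The ratio of MMP1 to MMP3 differed less between the lines, though it varied more within each. It lay between 29.2 and 50.9 in shNSi libraries and between 13.3 and 42.5 in shDAP5 libraries, and in total mRNA it was 5.13 ± 0.30 in shNSi and 5.12 ± 0.41 in shDAP5 cells on the log2 scale (SD, n = 2). The lowest MMP1 to MMP3 ratios, 15.2 and 13.3, were those of the shDAP5 light libraries, which held 14 and 16 reads of MMP3.

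Of 2 protease to inhibitor ratios in total mRNA, that of MMP1 to TIMP1 did not overlap between the lines and that of MMP14 to TIMP2 did. In total mRNA there were 0.827 and 0.885 reads of MMP1 for each read of TIMP1 in the shNSi cultures, and 0.101 and 0.122 in the shDAP5 cultures. For MMP14 and its partner TIMP2 the ratios in total mRNA were −1.57 ± 0.85 in shNSi and −1.84 ± 0.40 in shDAP5 cells on the log2 scale (SD, n = 2), a difference smaller than the spread. In heavy polysomes the MMP14 to TIMP2 ratios were 0.296 and 1.10 in shNSi and 0.270 and 0.186 in shDAP5 cells, without overlap. With 2 cultures in each line an exact permutation test of such a ratio cannot give a two-sided p below 0.333, and none was run.

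**Figure D3:**
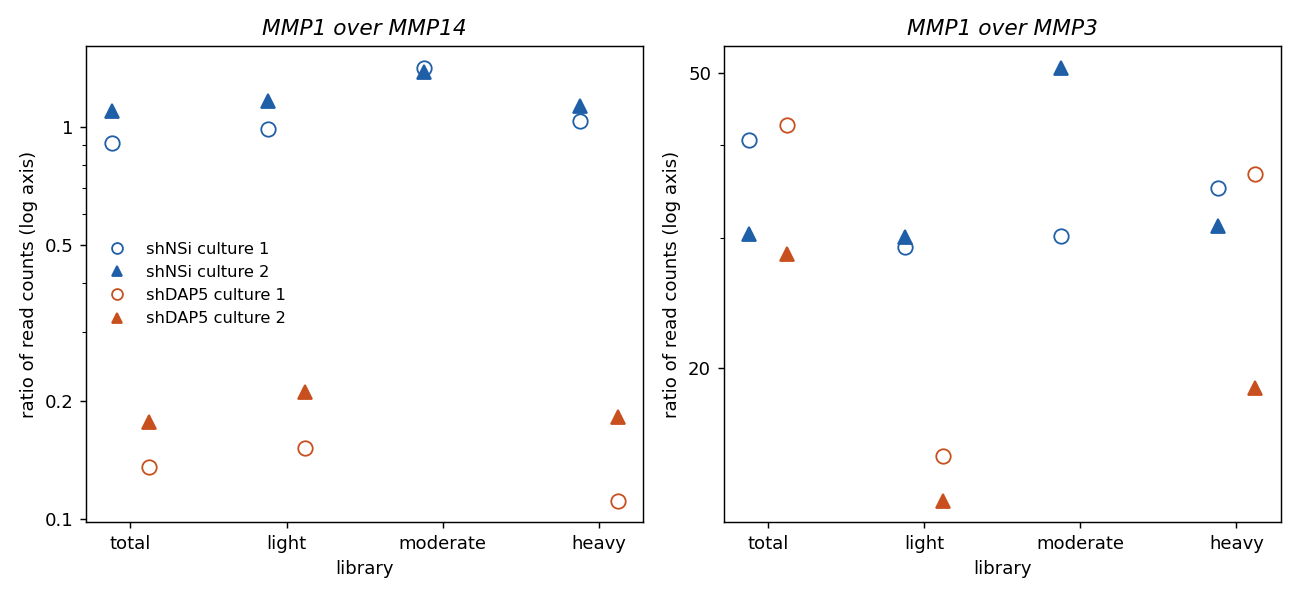
Ratio of read counts of MMP1 to MMP14 (left) and of MMP1 to MMP3 (right) in each of the 14 libraries, on log axes, by fraction, with shNSi in blue, shDAP5 in orange, open circles for culture 1 and triangles for culture 2. The MMP1 to MMP14 ratio is above 0.909 in every shNSi library and at most 0.212 in every shDAP5 library, whereas the MMP1 to MMP3 ratios of the lines overlap.

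MMP9 and MMP13 were scarcely measured. MMP9 had 0 reads in the total, light and heavy libraries of shNSi culture 1, and 14, 8 and 61 reads in those of culture 2, against 2 to 7 reads in each shDAP5 library. A count of 0 allows up to 3 reads, which is 0.0933 to 0.142 CPM in these libraries (counting error only). MMP13 had between 0 and 2 reads in every library. For MMP13 no difference between the lines was detectable at this depth. MMP9 entered the heavy polysome test under 6 other settings and passed as lower under 2 of them, without shNSi culture 1 (−3.72, adjusted p = 6.95e-06) and without shDAP5 culture 1 (−3.07, adjusted p = 0.0131). These calls rest on the 61 reads of shNSi culture 2, beside 0 in culture 1. In the rest of the chromosome 11 cluster MMP7, MMP8, MMP10, MMP12, MMP20 and MMP27 had at most 4, 3, 5, 1, 1 and 0 reads in any library, so MMP1 and MMP3 were the only genes of the 9 in the cluster with more than 5 reads.

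Other genes of the pathway came from lists drawn up by function. Of 18 further MMP and TIMP genes 7 could be tested, 0 passed in total mRNA, and in heavy polysomes 1 rose and 1 fell. These were TIMP4, an inhibitor (1.11, SE 0.42, adjusted p = 0.0321), and MMP15, a membrane-anchored relative of MMP14 (−1.17, SE 0.36, adjusted p = 0.00847), both named after their values were seen. Of 14 genes for activation, docking and clearance of the enzymes 13 were tested, and 0 passed in total mRNA. In heavy polysomes 5 of them fell and 0 rose, where 16.7% of all genes fell. They were ITGB1, the integrin β1 chain (−2.52, SE 0.39, adjusted p = 1.59e-07), CD44, a hyaluronan receptor that docks MMP9 and MMP14 (−1.94, SE 0.39, adjusted p = 3.22e-05), and, named after their values were seen, the endocytic receptor LRP1 (−1.86), the urokinase receptor PLAUR (−1.25) and urokinase itself, PLAU (−1.07). The list medians in heavy polysomes were −0.26 and −0.58, beside 0.09 for all genes.

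Of 14 ADAM and ADAMTS genes, which encode related metalloproteinases, 11 were tested. In total mRNA 1 of them fell, ADAMTS1, a secreted proteoglycanase (−1.97, SE 0.29, adjusted p = 0.0128). In heavy polysomes 6 of the 11 fell and 0 rose, beside 16.7% of all genes that fell, with ADAMTS1 at −2.40, ADAMTS9 at −2.08 and the membrane sheddases ADAM10 at −2.05 and ADAM17 at −1.59. ADAM10 (−1.58, adjusted p = 0.00750), ADAM8 (−1.24, adjusted p = 0.0154) and ADAM17 (−1.15, adjusted p = 0.0275) also fell in heavy translation efficiency, 3 of 12 tested beside 8.23% of all genes, as did ITGB1 (−1.78, adjusted p = 0.00750). In the heavy to light comparison, which uses the same heavy libraries, ADAM10 fell by 1.86, ADAM8 by 1.80, ADAM17 by 1.58 and ITGB1 by 2.08, beside 5.21% of all genes that passed as lower. The list medians in heavy polysomes and heavy translation efficiency were −0.998 and −0.43, beside 0.09 and 0.09 for all genes.

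Among 12 AP-1 and ETS transcription factors, families known to act on metalloproteinase promoters, all 12 were tested. JUND rose in total mRNA (1.29, SE 0.22, adjusted p = 0.0262) and in heavy polysomes (1.67, SE 0.34, adjusted p = 4.30e-05). In heavy polysomes 3 of the 12 rose and 1 fell, where 30.9% of all genes passed in either direction. ELF3, an epithelial ETS factor, rose by 3.12 (SE 0.55, adjusted p = 3.46e-06). ETV4 rose by 0.94 (adjusted p = 0.0202) and ETS1 fell by 1.31 (SE 0.37, adjusted p = 0.00368) on the log2 scale, both named after their values were seen. In heavy translation efficiency 0 of the 12 passed, beside 13.1% of all genes.

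The mRNAs most like MMP14 and the TIMP members over the 14 libraries were found from the root mean square difference of centred log2 CPM among 9389 genes with a mean of at least 10 CPM. MMP14 lay nearest to CALR (0.16), PDIA4 (0.16) and OS9 (0.18). TIMP1 lay nearest to NBL1 (0.15), TIMP2 to FLRT2 (0.17) and TIMP3 to TBC1D10A (0.20). The distance between MMP1 and MMP14 was 1.40, and among the 5 members that reached this mean (MMP1, MMP14, TIMP1, TIMP2 and TIMP3) the closest pair was TIMP1 and TIMP3 (0.55).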

How the data were processed

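RNA from total lysate and pooled sucrose gradient fractions was sequenced as single reads. The authors deposited whole-number read counts per gene symbol, without normalization, and the labels' processing notes name STAR 2.6.0a, limma and the hg19 build. Counts were analysed in R 4.3.3 with edgeR 4.0.16 (filterByExpr, TMM, robust quasi-likelihood test), each comparison fitted on the whole table and adjusted over all genes tested by the Benjamini-Hochberg method, with a threshold of 0.05. Translation efficiency and heavy over light were interactions of fraction and shRNA with a term for each culture. The total mRNA, heavy translation efficiency and shNSi heavy over light fits were also run on simulated data, and the outcome is not reported here. CPM values were scaled over all 14 libraries, and log2 ratios used a pseudocount of 0.5 CPM. Positions and lengths came from GENCODE v29 on GRCh38, which matched 37619 of 58434 symbols. Alternatives were DESeq2 1.42.0, limma 3.58.1 on quantile-normalized log2(CPM + 1), library size without TMM, no filter, at least 10 counts in every library, replicate blocks, all libraries in 1 fit, coding length offsets, no culture term, the moderate pool as control and each culture left out. The members and lists were chosen with earlier results of these data known. Named genes were the members, EIF4G2 and the list genes past the threshold, at most 8 a comparison by smallest p, and beyond these the marker genes and those said to be named after their values were seen. The study describes 2 sets of experiments done independently, which the labels do not state. The mRNAs most like MMP1 are not reported here.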

Additional observations from a re-analysis of the deposited data

Results flagged for a closer look

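For 3 results the change differed between the pools being compared, by the test of the interaction itself. MMP1 and MMP14 changed more in heavy polysomes than in total mRNA, with interactions of −1.22 and −0.99 on the log2 scale. MMP3 changed more in heavy than in light polysomes, with an interaction of −2.08. In each case the ratios of the shDAP5 cultures did not overlap those of the shNSi cultures, and each call was lost in fits that left out a culture.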

How the results depend on the processing

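The falls of MMP1, MMP3 and MMP14 in heavy polysomes kept their direction under all 15 alternatives and stayed past the threshold under 14, 14 and 13 of them; the calls in translation efficiency and in heavy over light did not hold as well. Over single mRNAs, 661 values under alternatives kept direction and side of the threshold, 61 came to pass it, 53 no longer passed it and 52 changed sign. The cause of these shifts was not tested. In total mRNA the number of members past the threshold, 1 in the report, was 2 with DESeq2, 4 with no filter, 0 with all 14 libraries in 1 fit, and 0 to 4 with a culture left out. In heavy polysomes it was 2 with the shNSi moderate pool as control, beside 4, and 0 to 5 with a culture left out. In light polysomes, beside 0, it was 2 with DESeq2, 2 with no filter, 1 with coding length offsets, 4 with the moderate pool as the light control, and 1 to 7 with a culture left out. In heavy translation efficiency TIMP1 was at 1.24 without shDAP5 culture 1. Beside 2, the number of members past the threshold there was 1 with coding length offsets and 0 with limma, where 518 and 408 genes passed. It was 0 with library size without TMM, all 14 libraries in 1 fit and no culture term, fits in which 0 genes of any kind passed. The same held with the moderate pool as control, alone or summed with the heavy pool. In light translation efficiency it was 4 with the moderate pool as the light control and 0 to 1 with a culture left out. In heavy over light, beside 1, it was 2 with DESeq2, no filter or at least 10 counts in every library. It was 1 with the moderate pool as the light control (TIMP3, as higher, and not MMP3), where 3762 of 15754 genes passed. With all 14 libraries in 1 fit it was 0, beside 552 of 16235 genes. With limma, coding length offsets and no culture term it was 0, as was the number over all genes. The same held with the moderate pool as the heavy control, alone or summed with the heavy pool. The change of MMP3 ran from −2.87 to −1.54 with a culture left out.

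The labels do not state whether same-numbered cultures of the 2 lines were run together. The correlation of their deviations across genes was −0.11 in total mRNA, 0.06 in heavy and 0.05 in light polysomes, and −0.27 for heavy over total. These values do not settle whether the cultures were paired. With the replicate number as a replicate block 3 members passed in total mRNA, 2 in light polysomes and 0 in heavy translation efficiency. Over all genes that block passed 365 of 14992, 130 of 15529 and 688 of 15374. With the block crossed, chosen after seeing the data, 2 members passed in total mRNA and 2 in light polysomes, beside 71 and 99 of all genes. In heavy translation efficiency 4 members passed, 3 lower and 1 higher, beside 4133 of 15374 genes. In heavy over light 2 members passed, beside 2238 of 15878 genes. The block left the other counts of members within 1.5 times.

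These log2 changes took the other sign. With coding length offsets, TIMP1 (−0.55), TIMP3 (−0.22) and RECK (0.25) in heavy polysomes, TIMP2 (−0.56), TIMP3 (−0.39) and RECK (0.27) in heavy translation efficiency, and TIMP2 (−0.32), TIMP3 (−0.17) and RECK (0.20) in heavy over light did so. With the moderate pool as the heavy control, TIMP1 was −0.86 in heavy polysomes. In heavy translation efficiency MMP1 was 0.11, MMP2 0.077, MMP3 0.78, MMP9 1.04, MMP14 0.71, TIMP1 −0.33, TIMP2 −0.21 and TIMP3 −0.16. In heavy over light MMP2 was 0.38, MMP14 0.65 and TIMP1 −0.20. With heavy and moderate summed TIMP1 was −0.45 in heavy polysomes. With the moderate pool as the light control MMP1 was −1.11 and MMP14 −0.84 in light translation efficiency, and MMP2 0.37 in heavy over light. With all 14 libraries in 1 fit TIMP2 was −0.067 in heavy translation efficiency. With limma TIMP3 was 0.0024 in light polysomes, −0.19 in shNSi heavy over light, and TIMP1 −0.23 in shDAP5 heavy over light. With library size alone TIMP3 (−0.13) and RECK (−0.15) in shNSi and TIMP1 (−0.12) in shDAP5 heavy over light did so.

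A fit without a culture leaves 1 sample in that group, which is assumed to vary like the other group. With a culture left out, the range in total mRNA was −0.75 to 0.66 for MMP2, −1.15 to 0.013 for TIMP1, −0.25 to 0.68 for TIMP3 and −0.29 to 0.12 for RECK. In heavy polysomes it was −1.94 to 0.13 for MMP2 and −0.39 to 0.61 for TIMP1. In light polysomes it was −1.12 to 0.49 for MMP2, −1.07 to 0.78 for TIMP3 and −0.14 to 0.33 for RECK. In heavy translation efficiency it was −0.00077 to 0.13 for TIMP2 and −0.039 to 0.55 for TIMP3. In light translation efficiency it was −0.11 to 0.23 for MMP14, −0.77 to 0.090 for TIMP3 and −0.036 to 0.42 for RECK, and in heavy over light −0.21 to 1.32 for TIMP3.

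Over all genes the number past the threshold ranged from 0 to 577 in total mRNA (53 in the report), 2 to 4710 in heavy polysomes (4414), 0 to 4515 in heavy translation efficiency (2012) and 0 to 3762 in heavy over light (1072). It ranged from 0 to 4678 in light polysomes and from 0 to 4367 in light translation efficiency (0 in each). Library size alone as the scale moved the median change of all genes in heavy polysomes from 0.09 to 0.34 and the share of calls that were lower from 54.1% to 31.3%. In heavy over light that share went from 77.1% to 39.2%. With the moderate pool as the light control 3940 of 15431 genes passed in light polysomes and 4367 of 15859 in light translation efficiency. With 2 cultures a group and 10 to 28 reads of MMP3 in each shDAP5 library, precision is limited by both.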
